A study of Mus musculus with 18 samples.

Results

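Wild-type E14 mouse embryonic stem cells were compared after 48 h of 3D culture with 2i, the pair of inhibitors that holds such cells in the naive state, and with DMSO, the solvent of the inhibitors. The comparison rests on 6 of the 18 samples of the series, 3 with 2i and 3 with DMSO, and on the 16413 genes whose counts were high enough to be tested, of 49671 in the deposited table. The samples were chosen by their labels alone, so no measured value decided which of them entered. In 2i 14 of 15 naive transcription factors rose over DMSO. Among genes of the formative and primed epiblast 23 of 32 fell and 2 rose, among keratins and related filaments 8 of 12 fell and 2 rose, and among tight junction genes 14 of 25 fell and 3 rose. Over all genes tested 16.3% fell and 10.01% rose. On the list of Wnt targets 14 of 32 rose and 5 fell, but 6 rose with at least 10 counts required in every sample. On the list of Erk targets 19 of 43 fell and 3 rose. The lists were written with earlier results of these data known, so their counts describe the members and are no independent support.

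Naive pluripotency is the state of the epiblast before implantation, and it gives way to formative and then primed pluripotency as the epiblast turns into a polarised epithelium around a lumen. 2i joins CHIR99021, an inhibitor of the kinase Gsk3, to PD0325901, an inhibitor of the kinase Mek. Gsk3 marks β-catenin for degradation, so its inhibition stabilises β-catenin and turns on genes bound by TCF/LEF factors, whereas Mek activates Erk, through which Fgf drives cells out of the naive state.

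All cultures had come from cells of passage 20 with the strain label 12910la, which were kept before in 2i with Lif. They were then embedded in growth-factor-depleted Matrigel, a basement membrane hydrogel, in N2B27 medium without Lif. For 2i the medium was given 3 µM CHIR99021 with 0.4 µM PD0325901, and for the solvent control neither, so the DMSO cells had been without both inhibitors and Lif for 48 h. A further 3 samples with CHIR99021 alone at 3 µM, called CH, served to show where 2i differed from it. Cultures with PD0325901 alone were not analysed here, so a difference between 2i and CH is that of adding PD0325901 to CHIR99021. All cultures were of a single cell line, and the question was what both inhibitors did together to the transcriptome of cells in a matrix.

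Gene counts summed to 25706865 to 37158661 in the DMSO samples, 29148315 to 35089261 with 2i and 25388139 to 30799376 with CH. Levels are given as CPM, the counts scaled to the library size after TMM normalization, in replicates 1, 2 and 3 in that order. In every culture replicate 1 stood apart from the other replicates, with a chi-square per gene of 60.3 and 65.9 against replicates 2 and 3 in DMSO, where replicates 2 and 3 differed from each other by 8.57, and of 41.6 and 37.0 in 2i, where replicates 2 and 3 differed by 5.35. The labels do not say what a replicate number stands for or whether the samples were separate cultures, so p-values measure the spread between these samples, which may be technical. These are bulk samples, in which fewer cells of a type and less RNA per cell cannot be told apart. The 6 markers of epiblast and ES cells fixed for a check of the label were all tested and summed to between 2471 and 2767 CPM in DMSO and between 2026 and 2561 in 2i. Of 10 mesoderm markers 5 were tested, their sum lay between 3.50 and 6.17 CPM in DMSO and between 81.0 and 116 in 2i, and in 2i nearly all of it was T, while Msgn1 and Meox1 had no counts there. The 14 markers of primitive and visceral endoderm summed to between 28.3 and 43.4 CPM in DMSO and between 5.75 and 7.00 in 2i, with Afp and Ttr at 0 in all 6 samples, and most of the sum in DMSO was Col4a1. Hnf4a, a marker of the same list, went the other way, from at most 0.187 CPM in DMSO to between 1.37 and 2.51 CPM in 2i. The 9 markers of neural ectoderm lay between 29.7 and 107 CPM in DMSO and between 9.79 and 40.8 in 2i, most of it Tubb3, and the 8 of fibroblasts between 17.3 and 50.5 and between 2.41 and 2.60, in DMSO most of it Thy1. The 12 markers of trophectoderm summed to between 63.4 and 140 CPM in DMSO and between 88.4 and 110 in 2i. Of the 9 tested 4 rose and 3 fell. The 6 of primordial germ cells lay between 59.3 and 69.0 CPM in DMSO and between 82.5 and 143 in 2i, and 4 rose and 1 fell. The 8 of 2-cell-like cells summed to at most 0.694 CPM in DMSO and 0.560 in 2i. The part of other cell types in the results was not tested.

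In 2i 1643 genes stood higher than in DMSO and 2676 lower, or 10.01% and 16.3% of the 16413 tested and 26.3% in either direction. A gene was called where its log2 fold change exceeded 1 in size and its adjusted p-value lay below 0.01. Calls and all adjusted p-values below were made with edgeR by quasi-likelihood, Benjamini-Hochberg adjusted, with the replicate number as a block, and "rose" and "fell" are used of called genes only. The median log2 fold change over all genes was -0.00. Above a log2 fold change of 3 there were 381 genes higher and 918 lower, and above 5 there were 116 and 239. The 3 samples of 2i and the 3 of DMSO did not overlap for 57.1% of all genes tested and for 4159 of the genes called. Among the called genes, 123 of those higher had at most 3 counts in every DMSO sample and 380 of those lower had at most 3 counts in every 2i sample, so for these only a lower bound of the fold can be given, against 3 counts per library.

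**Figure D1:**
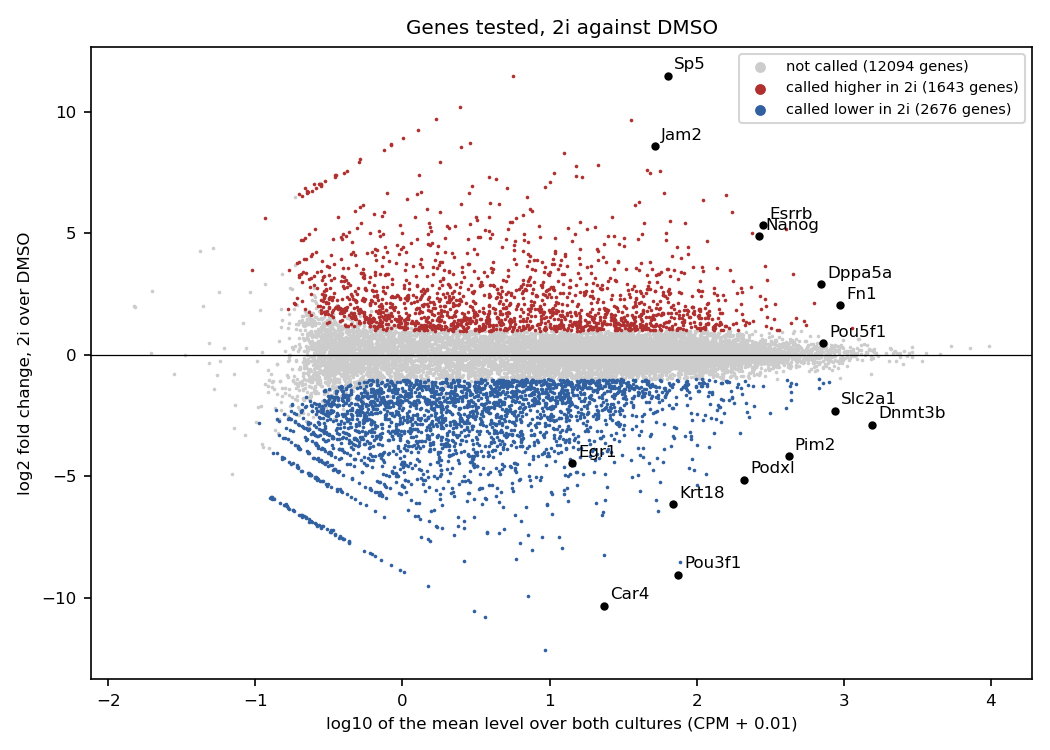
Log2 fold change of 2i over DMSO (vertical axis) against the mean level over both cultures (horizontal axis, log10 of CPM + 0.01) for each gene tested, with 1643 genes called higher in red, 2676 called lower in blue and named genes as black points. Jam2 lies at 8.60, Pou3f1 at -9.04 and Pou5f1 at 0.49, and the fitted values of genes at the floor, such as Sp5 and Car4, depend on the prior count and are no measured folds.

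Called genes with at least 100 counts on average and no overlap of the samples were ranked by the ratio of mean CPM, with each mean set to at least 3 counts per library, so that genes at the floor ranked by their bound. The largest increases by this rule were those of Sp5, Pglyrp1, Jam2, Mobp, Osm, Dmgdh, T and Trpm1. Sp5 (GRCm38 chromosome 2, 70474923 to 70477729), a transcription factor that represses Wnt targets, had 167, 103 and 113 CPM in 2i and 0.0267, 0.0939 and 0 CPM in DMSO, at most 3 counts in any DMSO library, and was at least 1324-fold higher. Pglyrp1, a protein that binds bacterial peptidoglycan, was at least 736-fold higher, at 93.8, 60.7 and 58.6 CPM in 2i. Jam2 (GRCm38 chromosome 16, 84774123 to 84825928), a junctional adhesion molecule, had 104, 103 and 103 CPM in 2i against 0.400, 0.188 and 0.154 CPM in DMSO, the narrowest spread of these genes in 2i. It rose by 8.60 on the log2 scale (standard error 0.21, adjusted p = 4.01e-10). Osm, a cytokine of the interleukin-6 family, rose to 53.6, 38.1 and 35.5 CPM from 0.267, 0.219 and 0.0386 CPM. For all 8 genes every 2i sample lay above every DMSO sample, as the rule that picked them requires. Without DMSO replicate 1 the log2 fold change of Jam2 was 9.23.

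The largest decreases by the same rule were those of Pou3f1, Car4, Kif1a, Fgf5, Tubb4a, Myl9, Tmem54 and Miat. Car4, a membrane-bound carbonic anhydrase, had 72.8, 35.3 and 31.7 CPM in DMSO and 0.0348, 0 and 0.0625 CPM in 2i, and was at least 488-fold lower. Tmem54 had no counts in 2i and was at least 194-fold lower, with exons that overlap those of Hpca over 4.66% of their length. Kif1a, a kinesin that carries vesicles along microtubules, fell from 257, 92.6 and 115 CPM to 0.209, 0.442 and 0.500 CPM. Myl9, a myosin light chain, had 60.9, 4.26 and 3.82 CPM in DMSO, so replicate 1 alone carried most of its DMSO level, and 0.244, 0.0590 and 0 CPM in 2i. Miat, a long non-coding RNA, fell from 7.61, 21.5 and 24.1 CPM to 0, 0.147 and 0.12499 CPM, but its exons overlap those of other genes over 30.4% of their length, and reads of overlapping genes cannot be told apart in counts made without regard to strand.

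By absolute amount, the called genes that gained most CPM were Fn1, Dppa5a, Asns, Slc2a3, Trh, Tdh, Esrrb and Zfp42. Trh, the precursor of thyrotropin-releasing hormone, had 728, 852 and 785 CPM in 2i and 19.3, 20.7 and 24.7 CPM in DMSO, a difference of 5.20 on the log2 scale (standard error 0.18, adjusted p = 3.02e-09). Tdh, threonine dehydrogenase, an enzyme that mouse embryonic stem cells need for one-carbon metabolism, had 851, 814 and 785 CPM against 64.8, 79.9 and 101. Asns, asparagine synthetase, rose by 1.10 on the log2 scale, from 849, 684 and 652 CPM to 1836, 1433 and 1407 CPM. The called genes that lost most were Dnmt3b, Slc2a1, Pim2, Rian, Fth1, Lin28a, Ptprf and Utf1. Pim2, a kinase that promotes survival, fell from 349, 976 and 1081 CPM to 23.7, 53.0 and 50.7 CPM, with replicate 1 lowest in both cultures. Fth1, the heavy chain of ferritin, fell from 1056, 1028 and 1162 CPM to 518, 496 and 492 CPM, and the receptor phosphatase Ptprf from 861, 561 and 578 CPM to 175, 130.2 and 128 CPM.

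**Figure D2:**
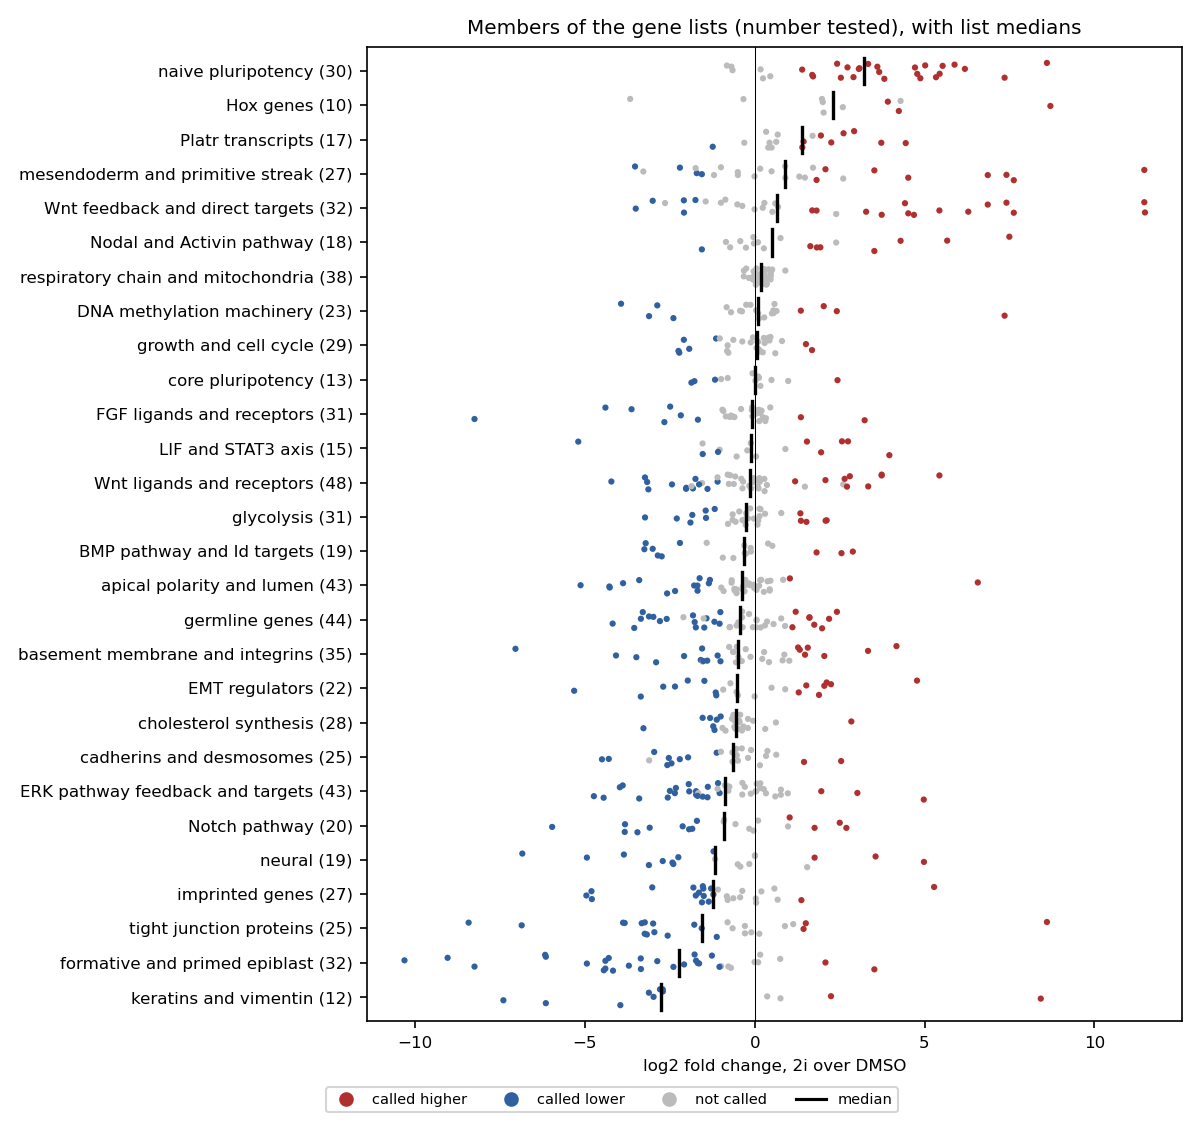
Log2 fold change of 2i over DMSO (horizontal axis) of every tested member of 28 gene lists (rows, with the number tested), red where called higher, blue where called lower and grey where not called, with the list median as a black bar. The medians run from 3.21 for naive pluripotency to -2.75 for keratins and vimentin, and the respiratory chain has no called member.

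The naive pluripotency list had the highest median of the 28 lists. All lists were written with earlier results of these data known, so their counts and medians describe the members and are no independent support. Of the 32 naive genes 30 were tested, 24 rose and none fell, so 80.0% rose against 10.01% of all genes. The median log2 fold change was 3.21, where that of all genes was -0.00. Among transcription factors 14 of 15 rose. Nanog, a homeodomain factor of the naive network, had 622, 459 and 436 CPM in 2i and 67.9, 5.92 and 2.78 CPM in DMSO. The groups did not overlap, but DMSO replicate 1 held far more Nanog than the other DMSO replicates, and its log2 fold change of 4.88 had a standard error of 0.66 (adjusted p = 6.62e-05). It was 6.60 without DMSO replicate 1 and 4.28 without DMSO replicate 3. Esrrb (GRCm38 chromosome 12, 86361117 to 86521628), an orphan nuclear receptor, had 566, 552 and 530.4 CPM in 2i and 30.2, 8.98 and 6.87 CPM in DMSO, again highest in DMSO replicate 1, and rose by 5.34 on the log2 scale (standard error 0.35, adjusted p = 2.63e-07), or by 5.98 without that library. Tfcp2l1, a factor that acts beside Esrrb, showed the same order of the DMSO replicates, with 30.2, 9.36 and 7.75 CPM against 472, 461 and 450.3 CPM in 2i.

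The Krüppel-like factors moved more evenly over replicates. Klf4 rose from 6.48, 3.79 and 3.39 CPM to 164, 94.9 and 99.96 CPM (log2 fold change 4.72, standard error 0.09, adjusted p = 8.91e-11), with replicate 1 highest in both cultures, and Klf2 from 20.04, 14.9 and 14.2 CPM to 229, 176 and 195 CPM. Prdm14, a factor that represses Fgf signalling and DNA methyltransferases, was close to undetected in DMSO, at 0.107, 0.219 and 0.231 CPM, and had 33.0, 28.1 and 29.0 CPM in 2i. It rose by 7.36 on the log2 scale (standard error 0.27, adjusted p = 3.32e-09), the largest change of any transcription factor on the list. Tbx3, a T-box factor, rose from 4.40, 1.94 and 1.85 CPM to 125, 131 and 134 CPM, and Nr0b1, a nuclear receptor without a DNA-binding domain, from 2.48, 3.32 and 2.47 CPM to 57.7, 90.0 and 85.1 CPM. Zfp42, the zinc finger protein also known as Rex1, rose from 50.8, 41.5 and 35.8 CPM to 475, 583 and 578 CPM. In none of these 6 genes did a 2i sample overlap a DMSO sample, which held for 57.1% of all genes tested.

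Other naive markers rose as well, Jam2 and Tdh among them with the values above. Dppa5a, an RNA-binding protein, rose from 211, 168 and 121 CPM to 1539, 1134 and 1060.3 CPM, and Alpl, the tissue-nonspecific alkaline phosphatase, from 4.003, 6.17 and 7.21 CPM to 459, 294 and 282 CPM. Tcl1, a coactivator of the kinase Akt, went from 1.601, 0.814 and 0.540 CPM to 79.4, 75.5 and 71.5 CPM, a difference of 6.19 on the log2 scale (standard error 0.24, adjusted p = 4.54e-09), or 6.80 without DMSO replicate 1. Dppa3, a maternal factor that protects methylated DNA, had 37.8, 19.3 and 17.4 CPM in 2i, highest in replicate 1, and 3.50, 3.04 and 2.08 CPM in DMSO. Fgf4, a growth factor secreted by naive cells, was not called, at 168, 153 and 156 CPM in 2i and 115, 136 and 97.4 CPM in DMSO (log2 fold change 0.46, standard error 0.13, adjusted p = 0.0113).

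The genes of core pluripotency, which naive and primed cells share, moved less. Of 13 tested, 1 rose and 3 fell, 7.69% and 23.1%, against 10.01% and 16.3% of all genes. The median was 0.02, and 2 rose when 2i replicate 1, DMSO replicate 2 or all replicates numbered 1 were left out. Pou5f1 (GRCm38 chromosome 17, 35506018 to 35510772), which encodes Oct4, had 745, 919.8 and 883 CPM in 2i and 533, 634 and 639.8 CPM in DMSO. The groups did not overlap, yet the difference of 0.49 on the log2 scale was below the minimum (standard error 0.06, adjusted p = 4.24e-05), and 14.1% of its exons overlap another gene. Sox2, the partner of Oct4, was the member that rose, from 79.4, 79.6 and 94.7 CPM to 493, 438 and 439 CPM, by 2.44 on the log2 scale (standard error 0.08, adjusted p = 1.63e-09). The 3 that fell were Lin28a and Lin28b, RNA-binding proteins that block the maturation of let-7, and Utf1, a chromatin factor. Lin28a fell from 890.1, 1001 and 1083 CPM to 300.3, 544 and 522 CPM, Lin28b from 69.6, 80.9 and 77.2 CPM to 22.3, 22.4 and 21.6 CPM, and Utf1 from 690.2, 692 and 674 CPM to 140.1, 219.6 and 217 CPM.

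**Figure D3:**
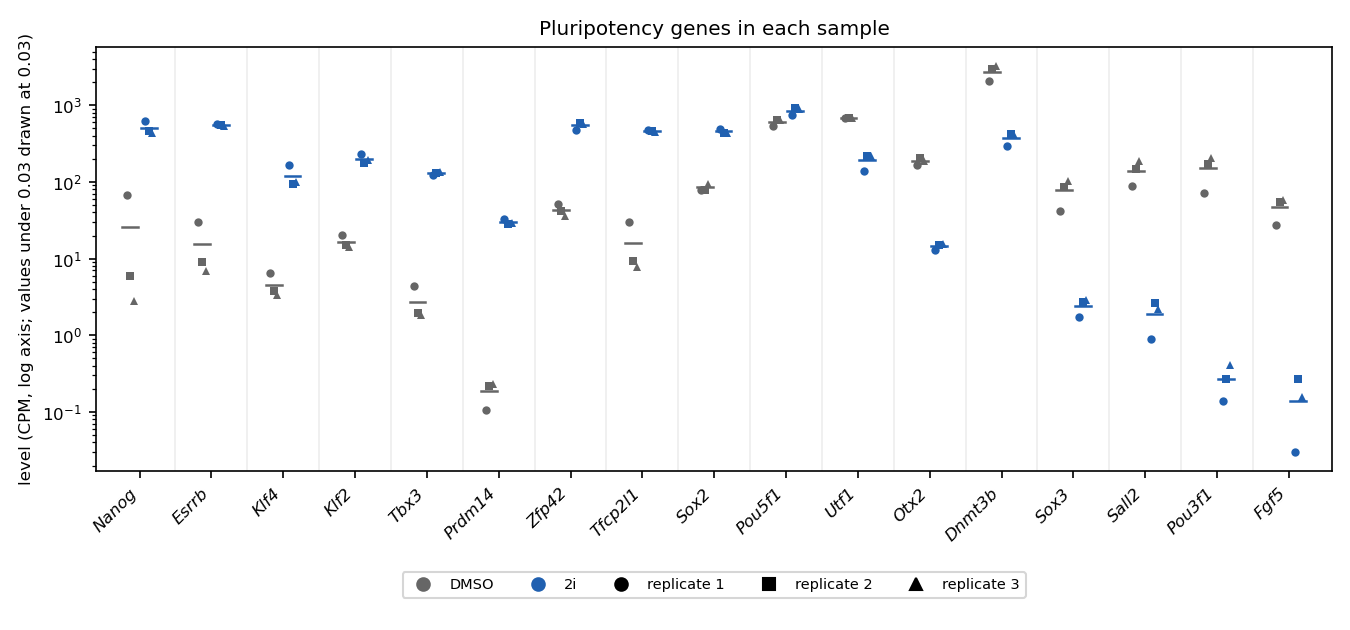
Levels of 17 pluripotency genes in each sample (CPM on a log axis), with DMSO in grey, 2i in blue, the replicate given by the marker shape and the mean by a bar. The naive factors lie higher in 2i without overlap, Pou5f1 lies between 533 and 919.8 CPM over both, and Pou3f1 and Fgf5 lie under 1 CPM in 2i.

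The formative and primed epiblast list, genes that come on when naive cells leave the ground state, went the other way. Of 32 genes tested 23 fell and 2 rose, 71.9% and 6.25%, against 16.3% and 10.01% of all genes. The median log2 fold change was -2.24. Pou3f1 (GRCm38 chromosome 4, 124656807 to 124660655), the POU factor Oct6 of the early post-implantation epiblast, had 72.5, 169.9 and 207 CPM in DMSO and 0.139, 0.265 and 0.406 CPM in 2i, so it fell by 9.04 on the log2 scale (standard error 0.41, adjusted p = 1.86e-08). Fgf5, the classic marker of this stage, had 27.5, 54.2 and 58.7 CPM in DMSO and 0, 0.265 and 0.156 CPM in 2i (log2 fold change -8.25, standard error 0.49, adjusted p = 1.18e-07, and -9.001 without 2i replicate 2). In both genes DMSO replicate 1 was the lowest of the DMSO samples, the reverse of Nanog and Esrrb.

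Otx2, the homeodomain factor that redirects Oct4 to enhancers of the primed state, fell from 167, 207 and 189 CPM to 12.8, 15.2 and 15.4 CPM (log2 fold change -3.70, standard error 0.33, adjusted p = 2.98e-06). Sall2, a zinc finger factor, fell from 87.2, 147 and 188 CPM to 0.906, 2.62 and 2.22 CPM, and Sox3, a relative of Sox2, from 42.1, 86.6 and 103 CPM to 1.71, 2.74 and 2.87 CPM. Sox2 and Sox3 therefore moved in opposite directions. Zic2, a zinc finger factor of the same stage, was not called, at 122, 154 and 156 CPM in DMSO and 70.4, 94.9 and 103 CPM in 2i (log2 fold change -0.70, adjusted p = 0.00287). The 2 members that rose were the secreted ligands Nodal and Wnt8a, described with their pathways below.

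Of the 32 tested genes of the Wnt feedback and target list, 14 rose and 5 fell, with a median of 0.65. These are 43.75% and 15.6%, against 10.01% and 16.3% of all genes. With at least 10 counts required in every sample, which leaves out genes near 0 in DMSO such as Sp5 and Cdx1, 6 rose. Those genes could be tested only because another culture held them, so they could not have fallen. Transcription factors gave 7 of the 14 and feedback inhibitors 4. Axin2, a scaffold of the complex that degrades β-catenin, rose from 9.02, 6.51 and 7.91 CPM to 206, 148 and 149.8 CPM (log2 fold change 4.42, standard error 0.17, adjusted p = 4.05e-09). Notum, a secreted enzyme that strips the lipid from Wnt proteins, rose from 1.201, 0.845 and 0.926 CPM to 71.9, 84.1 and 82.9 CPM, although 38.1% of its exons overlap antisense genes. T, the T-box factor Brachyury of the primitive streak, had 114, 80.4 and 79.0 CPM in 2i and 0.480, 0.344 and 0.579 CPM in DMSO, a difference of 7.63 on the log2 scale (standard error 0.24, adjusted p = 1.63e-09). Cdx1, a homeodomain factor of the posterior embryo, had no counts in DMSO and 11.9, 10.6 and 11.3 CPM in 2i, at least 117-fold more. Its relative Cdx2 had 7.07, 10.5 and 12.7 CPM in 2i and 0, 0.1252 and 0.154 CPM in DMSO.

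The list was far from uniform. Lef1, a TCF/LEF factor and a target of its own pathway, was not called, at -0.00 on the log2 scale (standard error 0.38, adjusted p = 0.993), and its DMSO samples spread from 15.3 CPM in replicate 1 to 90.0 CPM in replicate 2, around the 52.1, 50.3 and 50.9 CPM of 2i. Myc, a target in many tissues, had 5.68, 15.3 and 14.4 CPM in 2i and 11.2, 14.8 and 18.4 CPM in DMSO, and Ccnd1, which encodes cyclin D1 and shares 23.4% of its exons with another gene, had 239, 274 and 266 CPM in 2i and 125, 189.7 and 204 CPM in DMSO. Neither was called (log2 fold changes -0.37 and 0.61, adjusted p = 0.334 and 0.000197). Ccnd2, which encodes cyclin D2, fell from 20.7, 21.7 and 23.0 CPM to 3.69, 6.08 and 5.59 CPM, and the receptor gene Fzd7 from 288, 247 and 273 CPM to 67.7, 87.5 and 86.9 CPM.

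The promoters of Sp5 and T are printed because these target genes rose most among those with a letter match for a TCF/LEF core. The sequences are the 250 bases before each start, from RefSeq on GRCm38.p6, 5′ to 3′ on the strand of the gene, at chr2:70474673-70474922 for Sp5 and chr17:8434173-8434422 for T, both on the plus strand. Capitals mark a match to the core CTTTGAA, the core CTTTGAT, the core CTTTGTA or the core CTTTGTT on either strand.
Sp5: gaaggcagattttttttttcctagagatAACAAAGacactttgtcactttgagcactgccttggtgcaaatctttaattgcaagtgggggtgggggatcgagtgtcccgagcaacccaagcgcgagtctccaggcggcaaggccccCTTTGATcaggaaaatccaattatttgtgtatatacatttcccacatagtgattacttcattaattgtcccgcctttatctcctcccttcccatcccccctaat
T: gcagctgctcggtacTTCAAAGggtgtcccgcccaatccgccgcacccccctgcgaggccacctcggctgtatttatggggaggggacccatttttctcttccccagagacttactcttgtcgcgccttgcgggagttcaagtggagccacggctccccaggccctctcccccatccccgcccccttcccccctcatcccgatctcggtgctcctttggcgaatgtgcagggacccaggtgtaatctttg
Sp5 held 2 such matches and T held 1, and the 250 bases before Axin2, which rose by 4.42, held none. Over the 11726 tested genes with such a sequence, 12.66% had a match, compared with 17.19% of the 1059 called higher, 11.79% of the 1943 called lower and 7 of 21 on the Wnt list. A match describes letters only and says nothing about binding.

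Wnt ligands, receptors and modulators split in both directions, with a median of -0.13. Of 48 tested members 9 were higher and 12 lower, 18.75% and 25.0%, against 10.01% and 16.3% of all genes. Receptors fell more often than they rose, 6 against 2 of 12. Fzd10 rose from 2.40, 1.82 and 1.62 CPM to 89.0, 83.1 and 83.8 CPM, whereas Fzd2 fell from 83.0, 64.3 and 75.2 CPM to 16.1, 12.3 and 12.8 CPM. Porcn, the acyltransferase that Wnt proteins need for secretion, rose from 0.881, 2.35 and 1.35 CPM to 18.0, 21.3 and 20.5 CPM (log2 fold change 3.74, standard error 0.25, adjusted p = 2.51e-07). The ligand Wnt5b rose from 2.62, 2.07 and 1.77 CPM to 17.7, 25.3 and 23.6 CPM. Sfrp1, a secreted protein that binds Wnts, had 61.8, 106 and 105 CPM in 2i, lowest in replicate 1, and 15.8, 12.02 and 14.2 CPM in DMSO. None of the 8 intracellular components and none of the 8 nuclear factors was called by edgeR or DESeq2, while 7 and 4 of them had an unadjusted p-value under 0.05 in edgeR's test.

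Among targets and feedback inhibitors of Erk, the kinase below Mek, more fell than rose. Of 43 tested, 19 were lower and 3 higher, 44.2% and 6.98%, against 16.3% and 10.01% of all genes. The median was -0.88, and among immediate early genes 10 of 14 were lower. Egr1, an immediate early zinc finger factor, had 33.6, 23.3 and 24.1 CPM in DMSO and 1.74, 1.15 and 0.875 CPM in 2i, a fall of 4.45 on the log2 scale (standard error 0.28, adjusted p = 1.69e-07). Dusp4, a phosphatase that inactivates Erk, fell from 165, 172 and 220.3 CPM to 4.42, 8.35 and 7.97 CPM (log2 fold change -4.73, standard error 0.25, adjusted p = 4.33e-08). Dusp6, a phosphatase of the same family, fell from 90.0, 75.0 and 78.8 CPM to 19.8, 26.9 and 26.4 CPM, and Spry4, a Sprouty inhibitor of receptor signalling, from 13.8, 19.8 and 32.5 CPM to 2.51, 7.08 and 7.41 CPM. Groups did not overlap for these 4 genes, nor for 57.1% of all genes tested.

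The ETS factors did not move together. Etv4 fell by 1.39 on the log2 scale (standard error 0.30, adjusted p = 0.00179), but its samples overlapped, with 26.5, 60.2 and 75.1 CPM in DMSO and 7.17, 29.1 and 26.7 CPM in 2i, lowest in replicate 1 of each. Without the replicate block, which pairs samples of the same number, Etv4 was not called (log2 fold change -1.36, adjusted p = 0.0381), nor without DMSO replicate 3 (-1.19, adjusted p = 0.0128). Etv5 was not called at 542, 548 and 550.4 CPM in DMSO and 642, 606 and 591 CPM in 2i (log2 fold change 0.17, standard error 0.09, adjusted p = 0.142). Spry2, a second Sprouty gene, was not called either and lay higher in 2i, at 59.0, 68.0 and 69.6 CPM against 30.1, 40.8 and 45.3 CPM (log2 fold change 0.77, standard error 0.09, adjusted p = 1.70e-05). The 3 members that rose were the ephrin receptors Epha4 and Epha2 and the ETS factor Elk3, with Epha4 at 96.4, 75.6 and 76.2 CPM in 2i and 1.57, 2.85 and 3.66 CPM in DMSO.

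Of 31 tested genes of Fgf signalling upstream of and around Mek 2 rose and 7 fell, 6.45% and 22.6%, against 10.01% and 16.3% of all genes. It was 1 that rose without the replicate block, without replicate 1 or 2 of either culture and without all replicates numbered 1. Among receptors, 3 of 5 fell, including Fgfr2 from 43.6, 27.7 and 44.9 CPM to 7.24, 9.14 and 10.1 CPM, and none of 15 adaptors and cascade members was called by edgeR or DESeq2, although 7 had an unadjusted p-value under 0.05. Fgf17, a ligand of the Fgf8 subfamily, rose from 0.640, 0.751 and 0.771 CPM to 7.94, 5.96 and 6.44 CPM.

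Nodal signalling genes rose at the level of the ligand and its inhibitors. Of 18 tested, 7 rose and 1 fell, 38.9% and 5.56%, against 10.01% and 16.3% of all genes, with a median of 0.52. Nodal, a ligand of the Tgf-β family that the epiblast secretes, rose from 10.4, 7.64 and 5.59 CPM to 105, 85.7 and 81.8 CPM (log2 fold change 3.52, standard error 0.19, adjusted p = 6.12e-08). Lefty1 and Lefty2, secreted inhibitors that Nodal itself induces, rose from 1.28, 1.28 and 0.347 CPM to 76.8, 39.96 and 39.1 CPM and from 0.454, 0.970 and 0.116 CPM to 113, 88.6 and 87.3 CPM. Smad7, an intracellular inhibitor, rose from 2.62, 2.35 and 1.12 CPM to 45.7, 37.96 and 38.8 CPM. The co-receptor gene Tdgf1 was called at 1.64 (standard error 0.42, adjusted p = 0.00516) but varied widely in DMSO, at 50.4, 112 and 21.9 CPM, and was not called without the replicate block (log2 fold change 1.53, adjusted p = 0.022). Without 2i replicate 1, 2i replicate 3 or DMSO replicate 1 its adjusted p was 0.0144, 0.0187 and 0.012. Eomes, a T-box factor that Nodal induces, was the member that fell, from 8.33, 13.3 and 12.8 CPM to 3.69, 3.63 and 4.12 CPM.

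In the Bmp pathway 3 of 19 genes rose and 6 fell, 15.8% and 31.6%, against 10.01% and 16.3% of all genes. Id1 and Id2, inhibitors of helix-loop-helix factors and direct Bmp targets, fell from 20.8, 7.98 and 6.29 CPM to 1.01, 1.59 and 0.812 CPM and from 7.18, 8.17 and 7.17 CPM to 2.02, 0.678 and 0.687 CPM. Id3 was not called (log2 fold change -0.63, adjusted p = 0.144), and Id4 rose from 3.28, 1.03 and 1.08 CPM to 19.12, 8.88 and 10.7 CPM. No Lif had been added to either 3D culture, yet 3 of 5 tested receptors on the list of the Lif pathway rose. Lifr, the receptor of Lif, went from 11.3, 13.9 and 14.1 CPM to 76.3, 78.2 and 77.7 CPM (log2 fold change 2.57, standard error 0.08, adjusted p = 1.93e-09), and Il6st, which encodes its partner gp130, from 36.5, 32.3 and 32.9 CPM to 234, 224 and 225 CPM. Il6ra, a receptor of interleukin-6, rose from 1.07, 1.53 and 1.23 CPM to 18.9, 20.4 and 20.5 CPM. Over that list 5 of 15 genes rose and 3 fell, 33.3% and 20.0%, against 10.01% and 16.3% of all genes. Without the replicate block 1 of the list fell. The feedback inhibitor Socs3 was not called, at 4.11, 1.003 and 1.59 CPM in 2i and 7.87, 3.79 and 1.85 CPM in DMSO (log2 fold change -1.03, adjusted p = 0.0134). Socs3 was called lower without 2i replicate 3 (adjusted p = 0.00871), by DESeq2's Wald test (0.00253), with no filter on low counts (0.00107) and with all replicates numbered 1 left out (0.00484).

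Ligands of Notch, a receptor through which neighbouring cells signal, changed in opposite directions. Of 20 tested genes of the pathway 4 rose and 9 fell, with a median of -0.91. Jag1 rose from 9.87, 11.3 and 10.03 CPM to 54.0, 61.9 and 61.8 CPM, whereas Dll1, 20.6% of whose exons overlap another gene, fell from 39.1, 30.9 and 21.2 CPM to 2.93, 1.71 and 1.78 CPM, Dll3 from 11.8, 15.9 and 12.6 CPM to 1.99, 1.33 and 1.41 CPM and Jag2 from 48.1, 44.4 and 41.5 CPM to 9.16, 11.4 and 10.2 CPM. Among the 5 ligands tested 1 rose and 4 fell. Hes6, a neurogenic helix-loop-helix factor, fell by 3.45 on the log2 scale (standard error 0.11, adjusted p = 1.75e-09), from 229.8, 153 and 123 CPM to 22.5, 12.5 and 11.5 CPM.

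Genes of the germ layers were mostly low. On the list of mesendoderm and primitive streak genes 27 of 36 were tested, and 8 rose and 4 fell. These are 29.6% and 14.8%, against 10.01% and 16.3% of all genes. The median was 0.90, or 0.57 with genes at the floor set to their bound. When all replicates numbered 1 were left out, 7 mesendoderm genes fell. The highest of these genes in 2i was T, given above. Of 31 Hox genes, the factors that pattern the body axis, only 10 had enough counts to be tested and 3 of these rose, while 1 fell without DMSO replicate 1. Among them were Hoxc4 and Hoxb9, named here after their values were seen, with 5.76 ± 1.10 CPM (SD, n = 3) and 3.09 ± 0.54 CPM in 2i and at most 0.202 CPM on average in DMSO. With at least 10 counts required in every sample, 0 Hox genes rose, and 2 mesendoderm genes rose and 2 fell. Genes near 0 in DMSO could be tested only because another culture held them, and they could not have fallen. For such genes the counts of members that rose support no conclusion. Of 19 tested neural genes 9 fell and 3 rose, 47.4% and 15.8%, against 16.3% and 10.01% of all genes, with a median of -1.17. Nes, the neural intermediate filament nestin, fell from 88.8, 68.2 and 67.7 CPM to 8.19, 8.76 and 8.84 CPM, and Tubb3, neuronal tubulin, from 27.8, 63.6 and 103 CPM to 8.95, 38.5 and 38.7 CPM, with overlapping samples. Tubb3 was not called without the replicate block (log2 fold change -1.17, adjusted p = 0.153), nor without 2i replicate 1, 2i replicate 3, DMSO replicate 2 or DMSO replicate 3 (adjusted p = 0.0283, 0.0234, 0.0102 and 0.0408). Stmn2, a regulator of microtubules in neurons, rose from 17.3, 22.9 and 24.2 CPM to 210.3, 278 and 269 CPM (log2 fold change 3.56, standard error 0.07, adjusted p = 8.91e-11), so the list did not move in a single direction.

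The genes of epithelial structure were lower in 2i in several groups at once. Keratins and related filaments had the lowest median, -2.75, with 8 of 12 tested genes lower and 2 higher. These are 66.7% and 16.7%, against 16.3% and 10.01% of all genes. Krt18 and Krt8, which pair into the filaments of simple epithelia, fell from 247, 82.9 and 78.0 CPM to 2.37, 1.56 and 1.34 CPM and from 87.1, 31.2 and 33.5 CPM to 4.88, 7.31 and 6.84 CPM, and DMSO replicate 1 held the most of both. Krt18 fell by 6.15 on the log2 scale (standard error 0.18, adjusted p = 1.22e-09). Vim, the filament protein vimentin of mesenchymal and embryonic stem cells, rose from 35.2, 64.0 and 67.9 CPM to 239.9, 269 and 264 CPM (log2 fold change 2.25, standard error 0.15, adjusted p = 2.55e-07).

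Of 25 tested tight junction genes 14 fell and 3 rose, 56.0% and 12.0%, against 16.3% and 10.01% of all genes. The median was -1.56. Claudins are the strands of the junction, and 6 of 10 fell, among them Cldn6, from 186, 157 and 144 CPM to 29.9, 12.6 and 13.999 CPM, and Cldn7, from 99.9, 73.0 and 65.0 CPM to 17.9, 2.36 and 2.47 CPM, while Cldn4 was not called (log2 fold change -0.65, adjusted p = 0.000254). Ocln, which encodes occludin, fell from 30.6, 20.6 and 26.4 CPM to 3.87, 2.30 and 2.22 CPM. Cgn, the cytoplasmic adaptor cingulin, fell from 145, 91.5 and 100.2 CPM to 7.77, 6.90 and 7.84 CPM (log2 fold change -3.88, standard error 0.12, adjusted p = 1.35e-09). Tjp1, the scaffold ZO-1, fell by 1.12 on the log2 scale (adjusted p = 4.68e-08), from 224, 239.9 and 217 CPM to 94.4, 109.6 and 110.5 CPM. Apart from Cldn4, the groups did not overlap for any of these genes, nor did they for 57.1% of all genes tested. Against this trend, Jam2 was the member that rose most, as given above.

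Polarity complexes and the machinery of the lumen fell in part. Of 43 tested genes 13 fell and 2 rose, 30.2% and 4.65%, against 16.3% and 10.01% of all genes. The median was -0.37, and 1 rose without the replicate block or without replicate 2 or 3 of either culture. Podxl (GRCm38 chromosome 6, 31519488 to 31563981), the sialomucin podocalyxin that lines the lumen, fell from 487, 385 and 360.1 CPM to 9.47, 12.5 and 12.8 CPM, by 5.13 on the log2 scale (standard error 0.17, adjusted p = 2.00e-09). Arl4c, a small GTPase of tubulogenesis, fell from 233, 142 and 158 CPM to 9.23, 9.35 and 8.37 CPM, and Rab25, a GTPase of apical recycling, from 50.5, 36.3 and 34.5 CPM to 9.33, 2.01 and 2.16 CPM. Crumbs complex genes fell in 4 of 6 cases, against 1 of 8 genes of the Par complex. Pard6b, which encodes a Par6 protein, was the Par gene that fell, from 78.5, 48.8 and 52.5 CPM to 24.0, 23.2 and 23.6 CPM, and Pard3 was not called (log2 fold change -0.68, standard error 0.06, adjusted p = 1.82e-06). Ntn1, the guidance protein netrin-1, rose by 6.57 on the log2 scale (standard error 0.31, adjusted p = 2.47e-08), or by 7.33 without DMSO replicate 1, from 4.75, 1.78 and 2.66 CPM to 209, 369 and 359.8 CPM.

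Cadherins and desmosomes had 9 of 25 genes lower and 2 higher, 36.0% and 8.0%, against 16.3% and 10.01% of all genes. It was 1 higher without the replicate block or without replicate 2 or 3 of either culture. Cdh1, E-cadherin, the main adhesion molecule of these cells, was not called, at 986, 917 and 927 CPM in DMSO and 605, 678 and 674 CPM in 2i (log2 fold change -0.54, standard error 0.08, adjusted p = 0.000117), although the groups did not overlap. Cdh2, N-cadherin, was not called either, at 3.36, 9.98 and 11.5 CPM in DMSO and 1.39, 8.91 and 8.12 CPM in 2i. Dsc2, a desmosomal cadherin, fell from 22.9, 9.01 and 9.41 CPM to 1.39, 0.236 and 0.344 CPM, and Nectin1, an adhesion molecule of adherens junctions, from 27.2, 40.1 and 63.1 CPM to 2.86, 10.9 and 11.03 CPM.

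**Figure D4:**
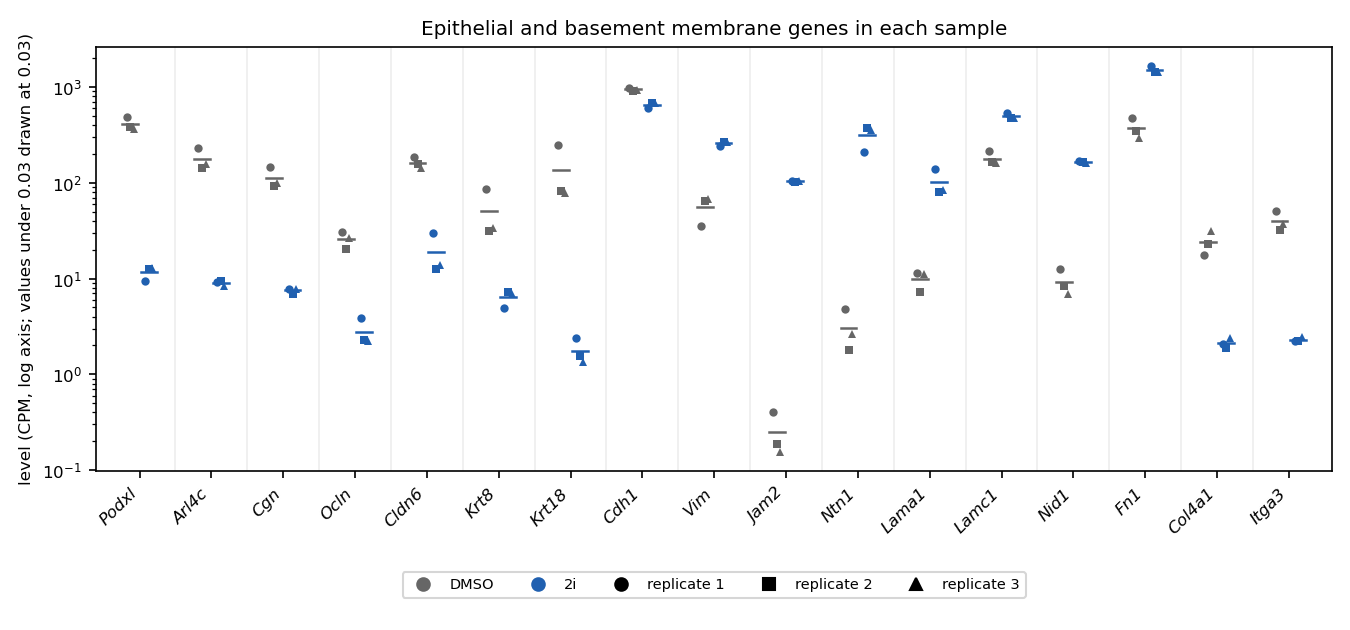
Levels of 17 epithelial and basement membrane genes in each sample (CPM on a log axis), with DMSO in grey, 2i in blue, the replicate given by the marker shape and the mean by a bar. Podxl and Krt18 lie over 70 CPM in DMSO and under 15 CPM in 2i, Cdh1 lies between 605 and 986 CPM in all samples, and Lama1, Nid1 and Fn1 lie higher in 2i while Col4a1 and Itga3 lie lower.

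Laminins and the genes of collagen and matrix each moved both ways, with 3 higher and 4 lower in either class. Of 35 tested basement membrane and integrin genes 7 rose and 11 fell, 20.0% and 31.4%, against 10.01% and 16.3% of all genes. The median was -0.48. Leaving out any 1 library of 2i or DMSO, 7 to 9 fell, with 7 without 2i replicate 1. The chains of laminin-111 did not move together. Lama1, which encodes the α1 chain, went from 11.3, 7.20 and 11.1 CPM to 140.3, 79.4 and 83.9 CPM (log2 fold change 3.34, standard error 0.19, adjusted p = 8.20e-08), and Lamc1, which encodes γ1, from 212, 164 and 159 CPM to 530.2, 479 and 476 CPM, while Lamb1, which encodes β1 and is named here after its values were seen, fell by 1.01 on the log2 scale. Nid1, which encodes the linker nidogen-1, rose from 12.5, 8.36 and 6.87 CPM to 169, 163 and 163 CPM. Fn1, fibronectin, rose from 479.7, 345 and 291 CPM to 1646, 1449.8 and 1445 CPM. The collagen IV chains Col4a1 and Col4a2 fell, Col4a1 from 17.6, 23.1 and 31.1 CPM to 2.05, 1.89 and 2.37 CPM (log2 fold change -3.48, standard error 0.18, adjusted p = 3.93e-08) and Col4a2 from 7.53, 6.45 and 8.72 CPM to 1.15, 1.003 and 0.875 CPM. Itga3, an integrin chain that binds laminin, fell from 51.0, 32.3 and 36.9 CPM to 2.23, 2.24 and 2.44 CPM.

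Regulators of the epithelial and mesenchymal states also split, 7 of 22 higher and 8 lower. These are 31.8% and 36.4%, against 10.01% and 16.3% of all genes. Zeb1, a repressor of epithelial genes, rose from 0.320, 0.344 and 0.347 CPM to 5.75, 12.2 and 11.4 CPM. Grhl2, an activator of epithelial genes, fell from 68.6, 95.7 and 97.8 CPM to 4.74, 11.1 and 10.9 CPM, and Esrp1, a splicing factor of epithelial cells, from 205, 181 and 186 CPM to 33.6, 27.8 and 27.1 CPM (log2 fold change -2.69, standard error 0.10, adjusted p = 3.64e-09).

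Both de novo DNA methyltransferases fell. Of 23 tested genes of the methylation machinery 4 were higher and 4 lower, 17.4% each, against 10.01% and 16.3% of all genes. Dnmt3b (GRCm38 chromosome 2, 153649450 to 153687730), which places new methylation marks, lost more CPM than any other called gene, from 2074, 2955 and 3221 CPM to 292, 425 and 411 CPM (log2 fold change -2.87, standard error 0.09, adjusted p = 1.75e-09). Dnmt3a fell from 406, 585 and 592 CPM to 99.7, 102 and 95.1 CPM. Dnmt3l, the cofactor of both, was not called, and its samples overlapped, with 125, 85.3 and 59.9 CPM in DMSO and 28.8, 98.9 and 94.4 CPM in 2i. The Tet genes, whose enzymes oxidise methylated cytosine, differed among themselves. Tet2 rose from 6.22, 8.14 and 3.78 CPM to 28.1, 34.1 and 36.0 CPM, Tet3 fell from 24.8, 43.1 and 45.3 CPM to 5.57, 3.54 and 3.9998 CPM, and Tet1 was not called (log2 fold change 0.04, standard error 0.11, adjusted p = 0.748). Uhrf2, a relative of the maintenance factor Uhrf1, rose from 60.5, 50.8 and 51.6 CPM to 138, 139 and 139 CPM. Zfp57, which protects imprints, rose from 172, 99.2 and 82.9 CPM to 387, 512 and 514 CPM.

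Germline genes, many of which are silenced by promoter methylation in somatic cells, did not rise as a group. Of 44 tested 8 rose and 16 fell, 18.2% and 36.4%, against 10.01% and 16.3% of all genes, with a median of -0.43. Without the replicate block 5 rose, without 2i replicate 1 or all replicates numbered 1 it was 4, and without DMSO replicate 1 it was 5. Sycp2, a protein of the synaptonemal complex, fell from 6.00, 9.70 and 7.83 CPM to 0.348, 0.501 and 0.437 CPM, and Mov10l1, a helicase of the piRNA pathway, from 14.9, 11.1 and 8.60 CPM to 1.32, 1.56 and 1.03 CPM. Dazl, an RNA-binding protein of germ cells, rose from 7.21, 8.20 and 6.25 CPM to 18.0, 14.1 and 14.7 CPM (log2 fold change 1.11, standard error 0.18, adjusted p = 0.000289), and lay just under the minimum fold change without 2i replicate 1 (0.96). Sycp3 fell from 53.1, 48.9 and 31.1 CPM to 8.92, 6.16 and 6.87 CPM, but 52.2% of its exons overlap Chpt1. Of 27 tested imprinted genes 14 fell and 2 rose, 51.9% and 7.41%, against 16.3% and 10.01% of all genes, with a median of -1.22. Rian, a long non-coding RNA of the Dlk1 cluster, fell from 1001, 993 and 924 CPM to 339, 396 and 412 CPM, whereas Plagl1, a zinc finger factor, rose from 0.667, 0.814 and 1.70 CPM to 44.9, 36.7 and 36.7 CPM.

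In metabolism, single genes changed strongly while others moved little across a whole pathway. Of 38 tested genes of the respiratory chain none was called, with log2 fold changes between -0.32 and 0.90. By edgeR's test 20 of them had an adjusted p-value under 0.01 and 26 an unadjusted one under 0.05, all below the minimum fold change, and DESeq2's Wald test called 0. Of 31 glycolysis genes 5 rose and 7 fell, 16.1% and 22.6%, against 10.01% and 16.3% of all genes. The glucose transporters moved in opposite directions. Slc2a1, which encodes Glut1, fell from 1397, 1523 and 1419 CPM to 274, 308 and 303 CPM (log2 fold change -2.29, standard error 0.08, adjusted p = 2.00e-09), and Slc2a3, which encodes Glut3, rose from 278, 355 and 106 CPM to 1224, 920.2 and 904 CPM (log2 fold change 2.12, standard error 0.29, adjusted p = 7.26e-05). Slc16a3, the lactate exporter Mct4, fell from 260.3, 441 and 371 CPM to 39.1, 36.5 and 37.7 CPM. Hk2, hexokinase 2, was not called (log2 fold change 0.10, adjusted p = 0.473), nor was Ldha, lactate dehydrogenase A, at 1675, 2238 and 1904 CPM in DMSO and 1225, 1079.5 and 1054 CPM in 2i.

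Cholesterol synthesis genes lay slightly lower, with a median of -0.55. Of 28 genes 1 was higher and 7 lower, 3.57% and 25.0%, against 10.01% and 16.3% of all genes. Ebp, a sterol isomerase, was the member that rose, from 8.89, 10.2 and 8.33 CPM to 65.6, 67.8 and 64.0 CPM. Of 29 growth and cell cycle genes 2 were higher and 5 lower, 6.90% and 17.2%, against 10.01% and 16.3% of all genes. Cdkn1a, the inhibitor p21, rose from 73.2, 48.7 and 36.5 CPM to 248, 109.5 and 109 CPM, highest in replicate 1 of each, and Bcl2l11, which encodes the cell death protein Bim, fell from 62.1, 80.3 and 72.1 CPM to 18.9, 18.2 and 18.9 CPM. Mycn, a Myc family gene, was not called (log2 fold change 0.13, standard error 0.14, adjusted p = 0.435).

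The cultures with CHIR99021 alone give the difference that adding PD0325901 made. Between 2i and CH 138 genes were higher in 2i, 0.841% of those tested, and 534 were lower, 3.25%, which together is 4.09%. Of the 1643 genes higher in 2i than in DMSO, 107 were also higher than in CH and 31 were lower than in CH, and of the 2676 genes lower in 2i than in DMSO, 392 were also lower than in CH and 6 were higher. Both comparisons share the 2i samples. Erk targets were lower in 2i than in CH for 10 of 43 genes, while no naive pluripotency gene was lower and 5 of 30 were higher. Mesendoderm genes were lower for 14 of 27 and Hox genes for 7 of 10. However, the filter on counts included the CH samples, so genes near 0 in DMSO and 2i could be tested because CH held them. For such genes a lower level in 2i than in CH was fixed in advance, so these 2 counts support no conclusion.

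Egr1 was the largest of these differences among well-counted genes. It had 135, 159 and 162 CPM in CH, above the 33.6, 23.3 and 24.1 CPM of DMSO, and 1.74, 1.15 and 0.875 CPM in 2i, so that 2i was lower than CH by 6.93 on the log2 scale (standard error 0.28, adjusted p = 3.49e-07). T had 665, 502 and 436 CPM in CH and 114, 80.4 and 79.0 CPM in 2i (log2 fold change of 2i over CH -2.55, standard error 0.15, adjusted p = 4.96e-06), so T lay above DMSO in both and lower in 2i than in CH. Cdx2 had 91.9, 54.1 and 45.4 CPM in CH and 7.07, 10.5 and 12.7 CPM in 2i, and both lay above DMSO. Wnt8a, a Wnt ligand of the streak, had 22.7, 29.4 and 22.7 CPM in CH, 2.16, 2.54 and 3.09 CPM in 2i and 0.213, 0.532 and 1.23 CPM in DMSO. Peg10, an imprinted gene derived from a retrotransposon, had 671, 785 and 643 CPM in CH, 105, 129 and 124 CPM in 2i and 49.2, 41.7 and 47.1 CPM in DMSO. For these 5 genes the 2i and CH samples did not overlap, as was so for 635 of the 672 genes called between these cultures. The share over all tested genes was not counted for this comparison, so the lack of overlap adds nothing to the calls.

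Sp5 and Axin2 were not called lower in 2i than in CH. Axin2 had 270.1, 158 and 156 CPM in CH and 206, 148 and 149.8 CPM in 2i, which was not called (log2 fold change -0.19, standard error 0.14, adjusted p = 0.379), and Sp5 had 307, 164 and 168 CPM in CH and 167, 103 and 113 CPM in 2i, a log2 fold change of -0.71 below the minimum (adjusted p = 0.00159). Among genes higher in 2i than in CH were Jam2, with 26.8, 30.3 and 34.5 CPM in CH (log2 fold change of 2i over CH 1.77, standard error 0.12, adjusted p = 1.62e-05), Prdm14, with 6.64, 7.03 and 10.3 CPM, and Lefty2, with 26.8, 32.1 and 27.6 CPM. Spic, an ETS factor, had 1.23, 3.92 and 4.08 CPM in CH and 14.6, 13.2 and 13.8 CPM in 2i, and 0.240, 0.0313 and 0.154 CPM in DMSO, and was not called between 2i and CH without the replicate block (adjusted p = 0.0111). Esrrb and Nanog were not called between 2i and CH (log2 fold changes 0.80 and 0.78, adjusted p = 0.0775 and 0.366). Every 2i sample of both lay above every CH sample, but how often this held over all genes was not counted, so it supports no difference. Podxl was lower in 2i than in CH by 1.78 on the log2 scale (standard error 0.16, adjusted p = 6.29e-05), at 37.7, 41.9 and 40.4 CPM in CH.

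**Figure D5:**
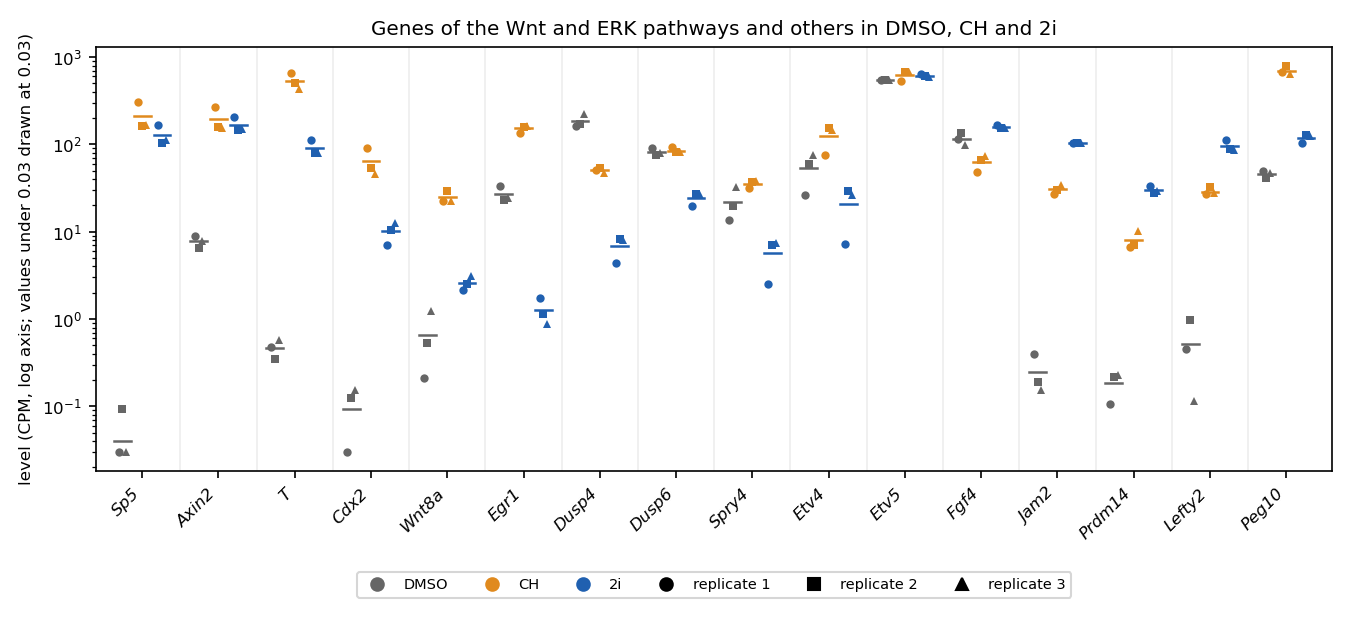
Levels of 16 genes in each sample of DMSO (grey), CH (orange) and 2i (blue), in CPM on a log axis, with the replicate given by the marker shape and the mean by a bar. Sp5 and Axin2 lie high in CH and 2i, T and Cdx2 lie lower in 2i than in CH, Egr1 lies highest in CH and lowest in 2i, and Jam2, Prdm14 and Lefty2 lie highest in 2i.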

How the data were processed

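RNA-seq of 18 samples was deposited as a table of raw counts per Ensembl gene. Per the labels and the methods, the authors aligned reads with TopHat2 (mm10) and counted them with HTSeq on Ensembl GRCm38 without regard to strand, although the library kit was directional, so genes with overlapping exons share reads. The 12 samples of E14 cells were fitted in edgeR 4.0.16 (R 4.3.3, limma 3.58.1) after filterByExpr and TMM scaling, with the 4 cultures and the replicate number as terms, and 2i was tested against DMSO and CH by quasi-likelihood with Benjamini-Hochberg adjustment. All 4 cultures entered to share one estimate of the spread. A gene was called where the log2 fold change exceeded 1 in size and the adjusted p-value lay below 0.01. The code was tested on simulated data.

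Deviations from the group mean over 11200 genes correlated between 2i and DMSO samples of the same number at 0.385 to 0.574, and of different numbers at -0.19 on average. Deviations within a group sum to 0, so the negative average follows from the positive values and adds no support for pairing. The replicate number was a block by plan. Replicates 2 and 3 also correlated across numbers, at 0.380 and 0.523, so the block mainly separates replicate 1.

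Genes named are the 8 called genes each way with the largest ratio of mean CPM (each mean set to at least 3 counts per library), non-overlapping samples and 100 counts or more on average, the 8 called genes each way with the largest CPM change, fixed and largest members of each list, and the 8 largest each way between 2i and CH. The members and lists were chosen with earlier results of these data known. Positions, exon overlaps and types come from GENCODE on GRCm38, which matched 49412 of 49671 identifiers, and promoters from RefSeq. Figures were drawn in Python 3.11.15 with pandas 2.3.3 and matplotlib 3.10.9. Alternatives were other size factors, filters, thresholds and samples, no block, and DESeq2 1.42.0. The floors of 3 counts cover counting error only, whereas the standard errors come from the quasi-likelihood fit and include the spread between samples.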

Additional observations from a re-analysis of the deposited data

How the results depend on the processing

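The main counts were 1643 genes higher and 2676 lower in 2i than in DMSO, and 138 higher and 534 lower in 2i than in CH. Without the replicate block, which pairs samples of the same number, they were 1373 and 2295 against DMSO, and 52 and 274 against CH, all of the latter also called with the block. With at least 10 counts required in every sample, 12935 genes were tested, of which 1053 and 1495 were called against DMSO and 88 and 325 against CH. In that setting, which leaves out genes near 0 in 1 culture, called list members fell to 2 higher and 2 lower for mesendoderm, 1 and 4 for neural genes, 0 higher for Hox genes, 4 higher for germline genes, 1 and 5 for keratins, 1 higher for tight junctions and for cadherins, 1 and 3 for Fgf, 3 lower for Bmp and 1 higher for primed genes. Tested against a log2 fold change of 1 with glmTreat they were 967 and 1773, and 10 and 103, and with no minimum fold change 4025 and 4334, and 657 and 849. At an adjusted p-value under 0.05 there were 210 genes higher in 2i than in CH, and there were also 210 with all replicates numbered 1 left out, a setting chosen after seeing the data. Leaving out 1 library gave 1484 to 1676 higher and 2456 to 2605 lower against DMSO, and 79 to 126 higher and 325 to 504 lower against CH, where 2i replicate 2 (88 and 325), CH replicate 2 (79 and 338) and 2i replicate 3 (351 lower) mattered most. Of the 193 named genes called against DMSO, 184 were called without the block, 170 with glmTreat, 188 without replicates numbered 1 and 186 to 190 without 1 library, and none reversed. Some uncalled genes changed sign. Lef1 (-0.00) was 0.018 with no filter, 0.012 with DESeq2's Wald test and 0.058 with only the 6 samples compared. With all replicates numbered 1 left out, Dnmt3l (-0.43) was 0.43, Mycn (0.13) was -0.053 and Hk2 (0.10) was -0.069. Leaving out 1 library, Lef1 ranged from -0.53 to 0.38, Dnmt3l from -0.83 to 0.22, Mycn from -0.016 to 0.25, Hk2 from -0.034 to 0.31 and Tet1 (0.04) from -0.047 to 0.093. DESeq2's Wald test gave 1587 and 2588 genes against DMSO. The remaining causes were not tested. Depth limits the folds of genes with at most 3 counts in a group, which are bounds.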

Other observations

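Long non-coding RNAs were called higher more often than lower, and protein-coding genes lower more often than higher. Of 452 tested lincRNA genes 99 were higher and 52 lower in 2i, and of 387 antisense genes 63 were higher and 40 lower, whereas of 14182 protein-coding genes 1285 were higher and 2495 lower. Of 459 processed pseudogenes 60 were higher and 28 lower, although reads of pseudogenes can come from their parent genes, and counts made without strand cannot tell an antisense gene from its partner. Of 17 tested Platr transcripts, non-coding RNAs described for their expression in pluripotent cells, 8 rose and 1 fell, with a median log2 fold change of 1.40. These are 47.1% and 5.88%, against 10.01% and 16.3% of all genes. Platr7 rose from 0.881, 2.19 and 1.47 CPM to 17.5, 21.0 and 19.4 CPM, Platr3 from 1.12, 2.25 and 1.27 CPM to 11.9, 12.3 and 10.4 CPM and Platr14 from 34.2, 42.6 and 30.4 CPM to 80.4, 98.9 and 105 CPM. No 2i sample of these 3 overlapped a DMSO sample, which held for 57.1% of all genes tested. The member that fell, Platr5, is named after its values were seen, lay under 1 CPM on average in both cultures and was not called without the replicate block. Platr5 was also not called by DESeq2's Wald test, with glmTreat, with no filter on low counts or with only the 6 samples compared. It lost its call as well when 2i replicate 2, 2i replicate 3 or any 1 DMSO library was left out. By chromosome, the share of genes called lower was highest on chromosome 15, with 140 of 610 tested genes, or 23.0%. Over all genes it was 16.3%, and the other chromosomes ran from 10.5% on chromosome 16 to 20.1% on chromosome 12. Chromosome 15 was picked after the values were seen, and the spread over chromosomes was not tested.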
